A study of Mus musculus with 10 samples.

Results

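The levels of 9 tight junction genes were compared between brain endothelial cells (BECs) of APP/PS1 mice and of control mice. The genes were chosen by name, with earlier results of these data known, and all 9 were found among the 14106 genes measured. They code for 4 proteins of the junction strands and of the corners where cells meet (Cldn5, Ocln, Marveld2 and Lsr), 3 immunoglobulin-like adhesion molecules (Jam2, F11r and Esam) and 2 scaffolds (Tjp1 and Cgnl1). Bulk RNA was sequenced from 10 libraries, 5 for each genotype, all from the cortex of female mice at the age of 1 year on a C3H/BL6 background. Control mice are given as WT, and APP/PS1 mice are transgenic animals in which Aβ plaques form, used to model Alzheimer's disease. After perfusion, the cortex without meninges was digested, myelin was removed and cells were enriched with CD31 microbeads, and the cells are described as CD31+CD45-. Whether a library holds 1 mouse or a pool is not given in the sources used here, so that each SD and p value measures the spread between libraries.

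Tight junctions seal the space between neighbouring endothelial cells, and in the brain they are the part of the blood–brain barrier that keeps solutes from passing between cells. Claudins form the strands, occludin and tricellulin strengthen them, adhesion molecules of the JAM family bring the membranes together, and scaffolds such as ZO-1 tie these proteins to actin. The comparison asks whether transcripts of this machinery differ in BECs of mice with amyloid plaques.

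Levels are given as log2 CPM, the log2 of a gene's count scaled to the size of its library (CPM), with a small prior count added, as the authors deposited them after correction for batch. Undoing the log2 and the scaling gave whole numbers, called adjusted counts here, which are not the original reads and whose origin in the batch correction is not settled. Libraries held from 22371766 to 126686149 adjusted counts, and both libraries of replicate 1 were the shallowest. The deposited CPM did not have the same sum in every library, so these totals are not the sizes used for the scaling. The labels give 4 batches, of which batch 4 holds replicates 4 and 5 of both genotypes. The control and the APP/PS1 library of the same replicate number are called a pair here, and in the deposited values the means of all 5 pairs were nearly equal. The 2 libraries of a pair therefore deviate from their group means as mirror images, and the SD within a group reflects only the spread of pair differences. A log2 fold change is the mean of 5 pair differences, APP/PS1 minus control, from limma with the pairs in the model. The interval beside it is its 95% confidence interval, and p values were adjusted over all 14106 genes.

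None of the 9 tight junction genes passed an adjusted p under 0.05 between APP/PS1 and control BECs. Their log2 fold changes ran from −0.0004 for Marveld2 to 0.10 for Cgnl1, with adjusted p values from 0.775 to 0.999 by limma. By that test 0 of 14106 genes passed (0%), and 1133 (8.03%) had an unadjusted p under 0.05, of which 0 were among the 9. With the pairs left out of the model, limma called 648 genes (4.59%), again with 0 of the 9. Because pair means were already nearly equal in the deposited values, that model counts 8 residual degrees of freedom where 4 remain. Its p values are therefore too small, here and below. Across the 9 intervals the lowest bound stood for a level 12.7% lower and the highest for one 21.6% higher in APP/PS1 BECs, so a change of 2-fold lies outside each of them. In bulk RNA, fewer cells of a type and less RNA per cell cannot be told apart.

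Promoters of 7 of the 9 genes were found in RefSeq (GRCm38.p6), each from 250 bases before to 50 after the annotated start. Those of Cldn5, Ocln and Marveld2 are shown, because Cldn5 and Marveld2 mark the top and the bottom of the levels described next and Ocln is the neighbour of Marveld2. Where a gene has several starts, the outermost is printed. Each is written 5′ to 3′ on the strand of the gene, and capitals mark the GC box (GGGCGG), the CCAAT box (CCAAT) and the TATA box (TATAAA), searched on both strands.
Cldn5, chr16:18776597-18776896, + strand: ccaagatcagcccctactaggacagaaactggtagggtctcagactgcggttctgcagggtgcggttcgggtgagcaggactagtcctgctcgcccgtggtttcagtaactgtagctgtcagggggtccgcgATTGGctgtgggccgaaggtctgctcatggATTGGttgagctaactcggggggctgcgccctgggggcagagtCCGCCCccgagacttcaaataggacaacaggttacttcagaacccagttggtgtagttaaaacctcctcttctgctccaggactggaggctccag
Ocln, chr13:100552669-100552968, − strand: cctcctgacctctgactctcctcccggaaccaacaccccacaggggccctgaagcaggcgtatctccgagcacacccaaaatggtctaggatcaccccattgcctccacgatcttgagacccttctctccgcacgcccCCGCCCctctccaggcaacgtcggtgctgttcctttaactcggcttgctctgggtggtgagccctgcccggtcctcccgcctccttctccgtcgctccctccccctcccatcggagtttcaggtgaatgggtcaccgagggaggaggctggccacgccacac
Marveld2, chr13:100616922-100617221, − strand: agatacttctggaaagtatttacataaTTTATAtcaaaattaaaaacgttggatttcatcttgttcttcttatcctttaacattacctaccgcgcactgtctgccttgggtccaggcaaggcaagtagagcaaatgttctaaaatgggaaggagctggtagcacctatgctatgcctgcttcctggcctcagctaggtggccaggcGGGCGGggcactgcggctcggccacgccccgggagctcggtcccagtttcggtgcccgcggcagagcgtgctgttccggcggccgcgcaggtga
The Cldn5 window holds 1 GC box and 2 CCAAT boxes, that of Ocln 1 GC box, and that of Marveld2 1 GC box and 1 TATA box. Among 32817 promoters of the same length, 35.6% hold a GC box, 37.4% a CCAAT box and 13.6% a TATA box. These are matches of letters and no measure of binding. The TATA match of Marveld2 lies on the opposite strand, near the upstream end of its window and away from the start.

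The tight junction genes were strongly expressed in BECs, with the exception of Marveld2. By mean log2 CPM, 8 of the 9 stood above at least 94.1% of all genes, while Marveld2 stood above 47.2%. To compare levels between genes, CPM was divided by the annotated exon length before taking the log2 (log2 CPM per kb, mean ± SD over 10 libraries). Cldn5 led with 9.91 ± 0.07, a level 9.04 times that of Ocln and 191 times that of Marveld2. Esam followed at 8.46 ± 0.05, Lsr at 7.72 ± 0.09, Tjp1 at 7.42 ± 0.07, Jam2 at 6.86 ± 0.05, Ocln at 6.74 ± 0.05, Cgnl1 at 6.45 ± 0.10 and F11r at 6.37 ± 0.04. Marveld2 came last at 2.34 ± 0.09, 4.03 log2 units under F11r. Neighbours in this order did not overlap over the 10 libraries, except Jam2 and Ocln, of which Jam2 was higher in 9 of 10, and Cgnl1 and F11r, of which Cgnl1 was higher in 8 of 10. As pair means were nearly equal in the deposited values, these SDs, overlaps and counts leave out differences in level between pairs. The 10 libraries are therefore not 10 independent measures of this order.

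**Figure D1:**
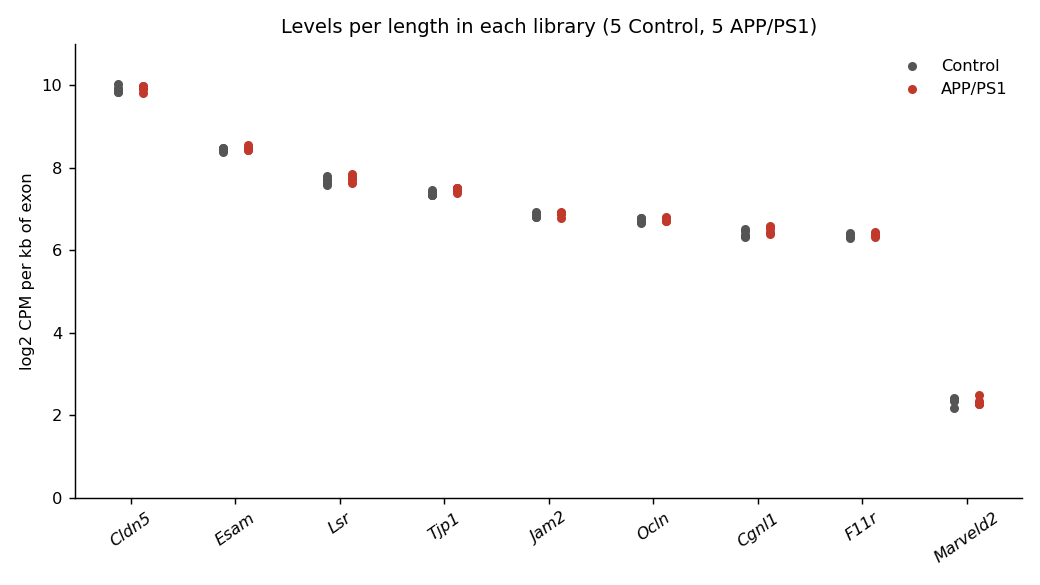
Log2 CPM per kb of exon (y axis) of the 9 tight junction genes in order of their mean, each point 1 library, 5 control (grey) and 5 APP/PS1 (red). The genotypes lie side by side for every gene, and the step from F11r to Marveld2 is 4.03 log2 units.

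Cldn5, the gene of claudin-5 and the main strand-forming claudin of brain endothelium, consists of 1 annotated transcript of 1416 bases at chromosome 16 from 18776847 to 18778262 of GRCm38. In control libraries 1 to 5 it was at 10.34, 10.35, 10.39, 10.43 and 10.52 log2 CPM, and in APP/PS1 libraries 1 to 5 at 10.49, 10.47, 10.44, 10.40 and 10.30. The APP/PS1 library was the higher of its pair in replicates 1, 2 and 3 and the lower in replicates 4 and 5, and the groups overlapped over nearly their whole range. Control libraries averaged 10.41 ± 0.07 and APP/PS1 libraries 10.42 ± 0.07 (SD, 5 libraries each). Cldn5 had a log2 fold change of 0.01 (interval −0.15 to 0.18, adjusted p = 0.975 by limma), or between 10.1% lower and 13.1% higher in APP/PS1 BECs. Every value rested on at least 30123 adjusted counts.

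Ocln codes for occludin, a membrane protein of the strands that spans the membrane with a MARVEL domain, and lies at chromosome 13 from 100496507 to 100552718. Control libraries 1 to 5 stood at 8.85, 8.75, 8.75, 8.85 and 8.81 log2 CPM, and APP/PS1 libraries at 8.77, 8.87, 8.88, 8.78 and 8.81. Pairs 2 and 3 were higher in APP/PS1 mice by 0.12 and 0.13 log2 units, pairs 1 and 4 differed by −0.08 each, and in pair 5 the libraries were alike. For Ocln the log2 fold change was 0.02 (interval −0.11 to 0.15, adjusted p = 0.955 by limma).

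Marveld2 and Lsr belong to the corners where 3 cells meet. Marveld2 codes for tricellulin, a relative of occludin, and Lsr for angulin-1, which brings tricellulin to these corners. Marveld2 lies 43238 bases from Ocln on the same strand, yet its level per kb was lower by a factor of 21.1. Its control libraries 1 to 5 were at 4.17, 4.15, 3.93, 4.09 and 4.13 log2 CPM and its APP/PS1 libraries at 4.02, 4.04, 4.25, 4.10 and 4.06. Pair 3 set it apart, with a difference of 0.32, the largest of any pair in the 9 genes, against differences between −0.15 and 0.01 in the other pairs. Over the 5 pairs the log2 fold change of Marveld2 was −0.0004 (interval −0.20 to 0.20, adjusted p = 0.999 by limma), with at least 359 adjusted counts per library. Without replicate 3 it was −0.08.
Lsr was at 8.75, 8.92, 8.85, 8.71 and 8.83 log2 CPM in control libraries 1 to 5 and at 8.93, 8.76, 8.84, 8.98 and 8.86 in APP/PS1 libraries. It was higher in pairs 1 and 4, by 0.17 and 0.27, and lower in pair 2, with a difference of −0.16. Its log2 fold change was 0.06 (interval −0.12 to 0.24, adjusted p = 0.886 by limma). Lsr, at chromosome 7 from 30957770 to 30973464, overlaps the antisense genes Gm17077 and Gm4673, and since the strand setting of the counting is not given in the sources used here, its level is uncertain to that extent.

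**Figure D2:**
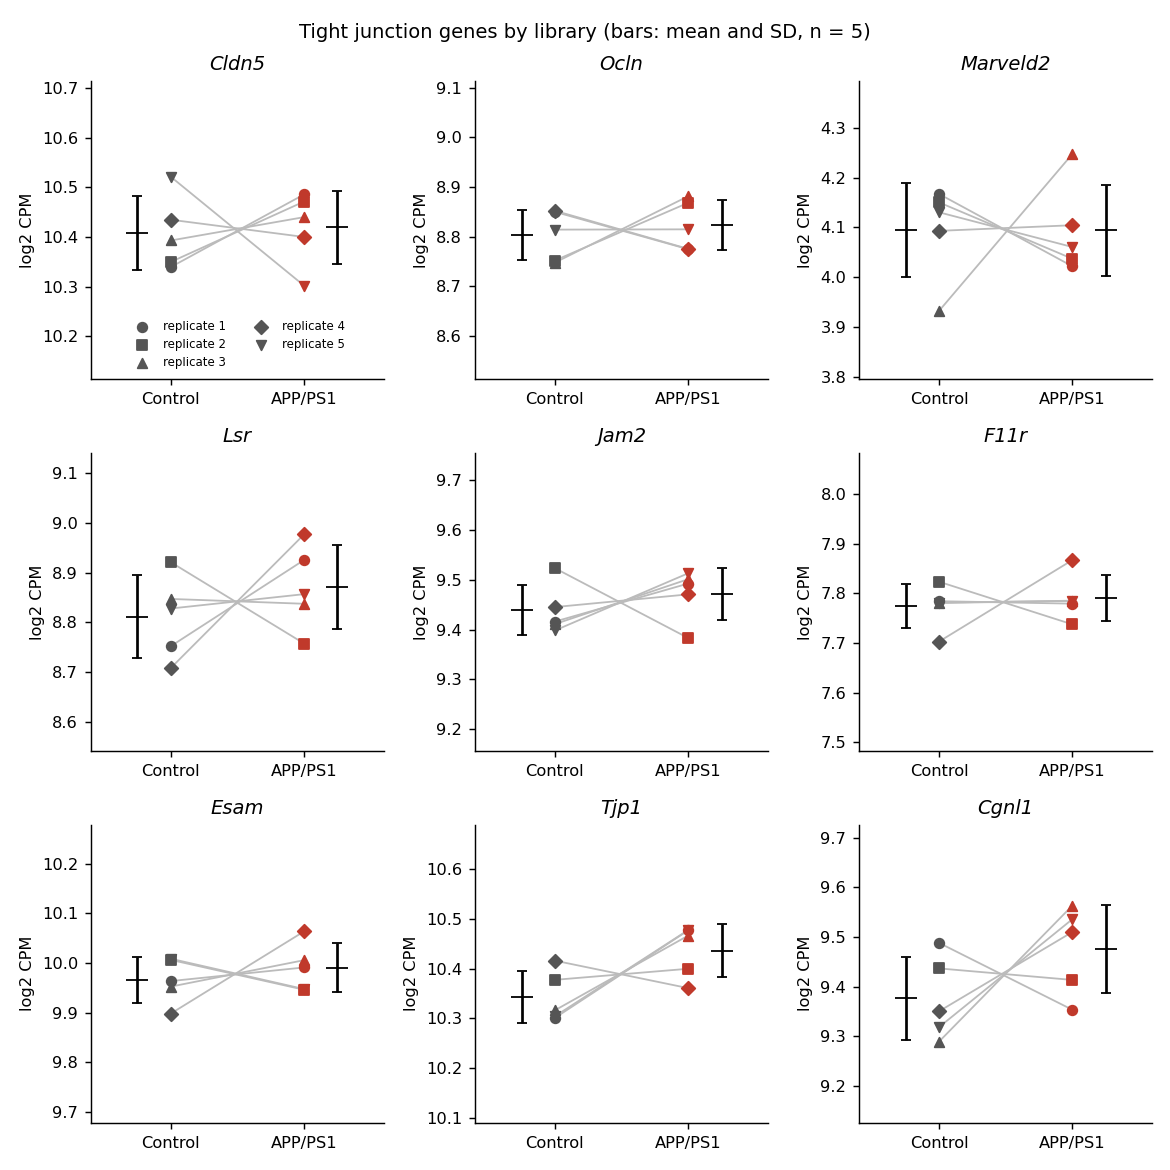
Log2 CPM (y axis, the same span of 0.6 units in each panel) of the 9 genes in control (grey) and APP/PS1 (red) libraries, with a line joining the libraries of a replicate and black bars for mean and SD (n = 5). Lines cross near 1 point because pair means were nearly equal in the deposited values, and each of the 9 genes has lines that go up and lines that go down.

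The adhesion molecules had log2 fold changes of 0.02 to 0.03, smaller than the spread of their pair differences. Jam2 (JAM-B), which binds other JAM proteins across the cleft, was at 9.42, 9.52, 9.41, 9.45 and 9.40 log2 CPM in control and at 9.49, 9.38, 9.50, 9.47 and 9.51 in APP/PS1 libraries 1 to 5. It was higher in 4 of 5 pairs and lower in pair 2, and the groups overlapped. Its log2 fold change was 0.03 (interval −0.10 to 0.17, adjusted p = 0.913 by limma).
F11r (JAM-A), which recruits the polarity protein Par3 to young junctions, was at 7.78, 7.82, 7.78, 7.70 and 7.78 log2 CPM in control and at 7.78, 7.74, 7.78, 7.87 and 7.79 in APP/PS1 libraries. In 3 of the pairs its libraries differed by less than 0.01 log2 units. For F11r the log2 fold change was 0.02 (interval −0.11 to 0.14, adjusted p = 0.959 by limma).
Esam, an adhesion molecule found mainly on endothelial cells and platelets, was at 9.96, 10.01, 9.95, 9.90 and 10.01 log2 CPM in control and at 9.99, 9.95, 10.01, 10.06 and 9.95 in APP/PS1 libraries. The largest of its pair differences was 0.17, in pair 4. Its log2 fold change was 0.02 (interval −0.10 to 0.15, adjusted p = 0.93 by limma), and a level lower by more than 6.93% is outside this interval.

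The scaffolds had the 2 largest log2 fold changes over all 5 pairs, but this order depended on single replicates. Lsr came above Tjp1 without replicate 2 (0.12 against 0.11) and above Cgnl1 without replicate 3 (0.08 against 0.05), and without replicate 5 Cldn5 at 0.0700 came above Cgnl1 at 0.0689. Tjp1 codes for ZO-1, which binds claudins, occludin and JAMs and links them to actin. It was at 10.30, 10.38, 10.32, 10.42 and 10.30 log2 CPM in control and at 10.48, 10.40, 10.47, 10.36 and 10.48 in APP/PS1 libraries. The APP/PS1 library was higher in 4 of 5 pairs, by 0.15 to 0.18 in pairs 1, 3 and 5, and lower in pair 4. Its log2 fold change was 0.09 (interval −0.04 to 0.23, unadjusted p = 0.141 and adjusted p = 0.775 by limma), the smallest p of the 9 genes. An exact permutation of the signs of its 5 pair differences gave a two-sided p of 0.188, where 5 pairs cannot go below 0.063. Without the pairs in the model its unadjusted p was 0.0237 and its adjusted p 0.156.
Cgnl1 codes for paracingulin, a relative of cingulin that joins the junction to regulators of small GTPases. It was at 9.49, 9.44, 9.29, 9.35 and 9.32 log2 CPM in control and at 9.35, 9.41, 9.56, 9.51 and 9.54 in APP/PS1 libraries. Pairs 3, 4 and 5 were higher by 0.27, 0.16 and 0.22, and pairs 1 and 2 were lower. Its log2 fold change was 0.10 (interval −0.09 to 0.28, adjusted p = 0.831 by limma).

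**Figure D3:**
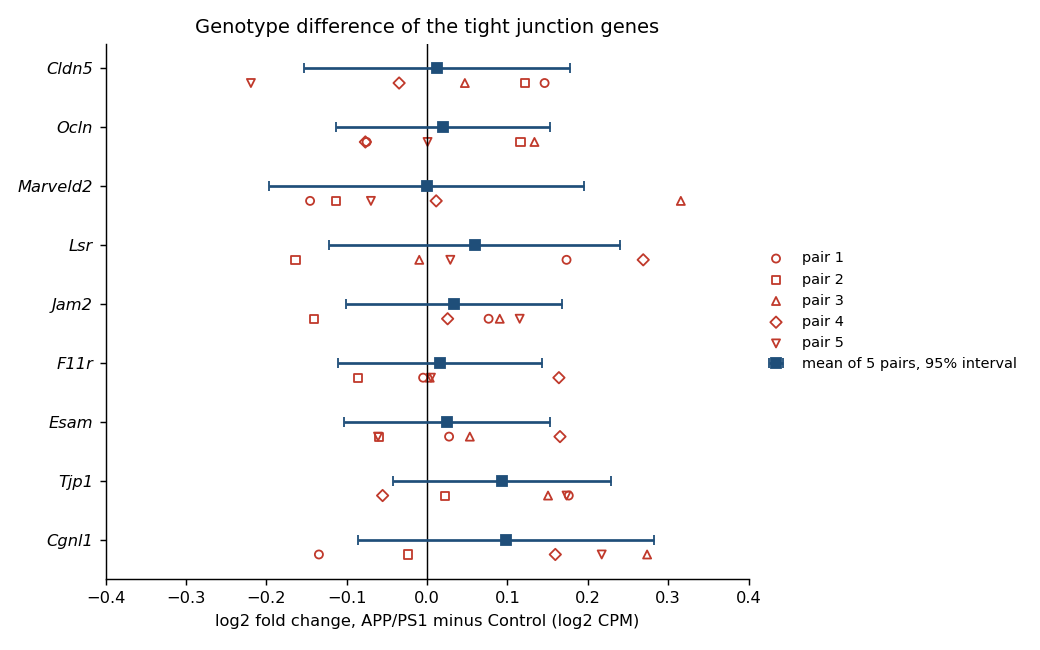
Log2 fold change of each gene (x axis, APP/PS1 minus control), with the mean of 5 pairs and its 95% interval as a blue square and bar and the pair differences as open red symbols under it. Each of the 9 intervals includes 0, and Tjp1 and Cgnl1 lie farthest to the right.

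Of the 9 genes, 8 had a log2 fold change above 0, where 48.2% of all genes did, and their median was 0.02, against −0.0038 over all genes. A shift of each library by the mean of 17 endothelial marker genes moved all genes alike, to a median of −0.04, and the median of the 9 to −0.01, so that 3 of the 9 were above 0 (Lsr, Tjp1 and Cgnl1). The count was also 3 when the CPM of the table were rescaled to the same sum in every library. The signs of Cldn5, Ocln, Jam2, F11r and Esam therefore depended on the scaling, and their position relative to all genes did not. On the deposited scale, leaving out a single replicate also turned the signs of Cldn5, Ocln, F11r and Esam, and that of Marveld2, which was −0.0004 over all 5 pairs. No gene of the 9 had the same direction in all 5 pairs, which 7.99% of all genes had, and the groups of no gene were apart, as they were for 7.88% of all genes. With nearly equal pair means, groups come apart almost whenever all 5 pairs have the same direction, so these are nearly the same measure. The 17 endothelial markers, among them Pecam1, Cdh5 and Kdr, gave a median of 0.05 on the same scale, with 13 above 0.
The pairs differed in their direction. In pair 3, 8 of the 9 genes were higher in the APP/PS1 library, with a median difference of 0.09, and in pair 2, 6 were lower, with a median of −0.06. The endothelial markers had a median of 0.13 in pair 3 and of −0.10 in pair 2. In pairs 1, 4 and 5 the medians of the 9 genes were 0.03, 0.03 and 0.0048, and those of the endothelial markers 0.06, 0.09 and 0.06. The part of endothelial content in these differences was not tested, and the shift described above, which moved all genes alike, does not measure it.
The residual SD of the fit had a median of 0.07 log2 units over them, from 0.06 to 0.13, compared with 0.11 for the 709 genes with a mean of at least 8 log2 CPM and 0.12 for all genes. Marveld2, Cgnl1 and Lsr lay above the median of the 709 genes, and the other 6 below it.

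By the root mean square distance between the 5 pair differences, 1810026B05Rik, Nlk and Ubald1 came nearest to Cldn5, with distances of 0.0424, 0.0429 and 0.0479 log2 units. Fbxo3, Zfp24 and Hnrnpd came nearest to Ocln, with distances of 0.0245, 0.0263 and 0.0275. The search covered 7647 genes with a mean of at least 4 log2 CPM, with a median distance of 0.186 for Cldn5 and 0.157 for Ocln. Within the 9 genes the nearest to Cldn5 was Ocln at 0.146, and the nearest to Ocln was Tjp1 at 0.143. With 5 pairs and so many genes, near matches of this kind are a description of these libraries.

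Another 50 genes of the tight junction and its control were measured, of 89 symbols listed by role, and 0 of them passed an adjusted p under 0.05 by limma. Of the 50, 34 had a log2 fold change above 0, where 48.2% of all genes did, with a median of 0.04. By limma, 7 had an unadjusted p under 0.05 (3 higher and 4 lower), compared with 8.03% of all genes. The endothelial shift, which moved all genes alike, left 23 of the 50 above 0. Without the pairs in the model limma called 5 of them, among them Rock2, Mylk, Pard6g and Cldn11, with adjusted p values from 0.0245 to 0.0478, where 4.59% of all genes were called.

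Of 33 claudins listed other than Cldn5, 3 were among the deposited genes, which the authors had filtered for low counts. All 3 were far below Cldn5. Cldn12 had 5.06 log2 CPM and 2.98 log2 CPM per kb, with a log2 fold change of 0.03 (interval −0.08 to 0.15). Cldn11, the claudin of myelin, was at 2.44, 2.02, 2.12, 2.30 and 1.93 log2 CPM in control and at 1.22, 1.75, 1.67, 1.44 and 1.85 in APP/PS1 libraries 1 to 5. All APP/PS1 libraries lay below all control libraries, and the pair differences ran from −1.21 in pair 1 to −0.08 in pair 5. Cldn11 had a log2 fold change of −0.58 (interval −1.01 to −0.14, adjusted p = 0.569 by limma, 0.0478 without the pairs in the model). Its lowest library held 51 adjusted counts. Cldn9 had a mean level of 1.34 log2 CPM, and its pair differences ran from −0.97 to 0.36.
All 8 oligodendrocyte markers measured had log2 fold changes below 0 (median −2.11), and their summed level ran from 40.4 to 276 CPM in control and from 33.1 to 141 CPM in APP/PS1 libraries. Cldn11 is a member of that list, and the part of oligodendrocyte RNA in its difference was not tested.

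In the list of JAM, CAR, TAMP and angulin families, 4 of 5 genes had a log2 fold change below 0, and 0 had an unadjusted p under 0.05. Highest were Marveld1, listed here for its MARVEL domain, and Ildr2, an angulin related to Lsr, at 7.02 and 6.86 log2 CPM. Their log2 fold changes were 0.08 (interval −0.20 to 0.35) and −0.04 (interval −0.16 to 0.08). Jam3 (JAM-C) had a log2 fold change of −0.18 (interval −0.37 to 0.01) and was lower in 4 of 5 pairs. Cxadr, the adhesion molecule CAR, was weakly expressed at 0.51 log2 CPM, with pair differences from −1.54 in pair 3 to 0.35 in pair 2 and a log2 fold change of −0.43 (interval −1.12 to 0.26). The lowest library of Cxadr held 24 adjusted counts.

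In the scaffold and polarity list, 15 of 23 genes were above 0, where 48.2% of all genes were, with a median of 0.03. This count depends on the scaling as well. Afdn, which codes for afadin, a link between nectins and actin, was at 8.82, 8.86, 8.73, 8.84 and 8.74 log2 CPM in control and at 8.93, 8.88, 9.02, 8.91 and 9.01 in APP/PS1 libraries. Its difference was positive in all 5 pairs, from 0.02 in pair 2 to 0.29 in pair 3. With nearly equal pair means, the groups were therefore apart. Afdn had a log2 fold change of 0.15 (interval 0.0074 to 0.30, adjusted p = 0.603 by limma). Arhgef2, a GTPase activator that is held inactive at junctions, had a log2 fold change of 0.05 (interval −0.09 to 0.20).
Magi2 and Pard6g, at 1.37 and 0.98 log2 CPM, were the lowest in log2 fold change of this list, at −0.39 each, with 4 of 5 pairs negative and adjusted p values of 0.569 by limma. Their lowest libraries held 43 and 40 adjusted counts.

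In the list of actomyosin and GTPase control, 17 of 19 genes were above 0, where 48.2% of all genes were, with a median of 0.05. The endothelial markers also had a median of 0.05 on this scale. Like the count over all 50 genes, the count of this list depends on the scaling. Myh9, the heavy chain of a non-muscle myosin, and Actn4, an actin crosslinker, were the highest at 10.40 and 9.82 log2 CPM. Their log2 fold changes were 0.13 (interval −0.14 to 0.40) and 0.10 (interval −0.08 to 0.28), and both were lower in pair 2 and higher in the other pairs.
Rock2, a kinase that raises actomyosin tension, was at 8.29, 8.35, 8.27, 8.34 and 8.25 log2 CPM in control and at 8.47, 8.41, 8.49, 8.42 and 8.51 in APP/PS1 libraries 1 to 5. The groups were apart, and the pair differences ran from 0.06 to 0.26. Rock2 had a log2 fold change of 0.16 (interval 0.03 to 0.29, adjusted p = 0.569 by limma, 0.0245 without the pairs in the model). Mylk, the myosin light chain kinase, is also an abundant gene of smooth muscle. It was at 7.66, 7.59, 7.77, 7.65 and 7.63 log2 CPM in control and at 7.46, 7.53, 7.35, 7.49 and 7.50 in APP/PS1 libraries. Its groups were apart in the opposite direction, with a log2 fold change of −0.20 (interval −0.36 to −0.04, adjusted p = 0.569 by limma, 0.0356 without the pairs in the model). All 10 mural cell markers had log2 fold changes below 0 (median −0.78), and their summed level was 581 to 979 CPM in control and 296 to 578 CPM in APP/PS1 libraries. Their part in the difference of Mylk was not tested.

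**Figure D4:**
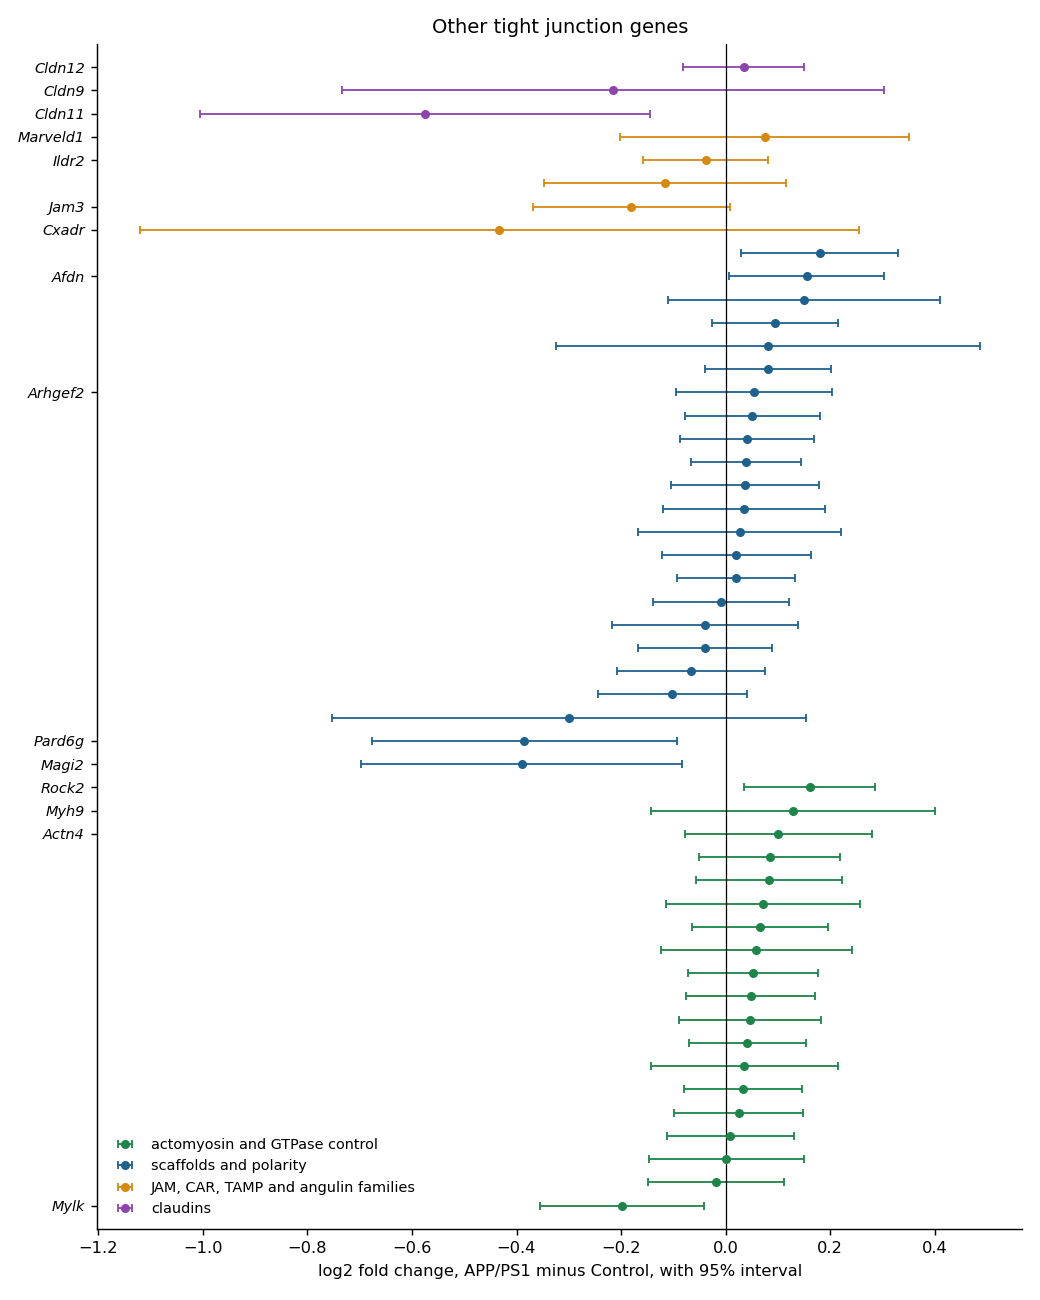
Log2 fold change (x axis, APP/PS1 minus control) with its 95% interval for the 50 other tight junction genes, coloured by role, with labels for the genes named in the text. Intervals of 7 genes leave out 0, among them Rock2 and Afdn above it and Cldn11, Magi2, Pard6g and Mylk below it.

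Of 9 lists of cell type markers, the endothelial list had the highest summed level, from 36113 to 39520 CPM in control and from 36478 to 39995 CPM in APP/PS1 libraries. Its genes ranged from Flt1 at 12.77 to Erg at 8.42 log2 CPM, and those of mural cells from Rgs5 at 8.50 to Kcnj8 at 1.94. Astrocyte markers summed to 172 to 210 CPM in control and 171 to 212 CPM in APP/PS1 libraries, and 8 of 9 had a log2 fold change below 0 (median −1.05). That sum rested mostly on Gja1, the gene above 0, with a log2 fold change of 0.27. Astrocyte markers ranged from Gja1 at 7.22 to Gjb6 at −1.23 log2 CPM, and oligodendrocyte markers from Cnp at 4.75 to Ermn at −1.84. Neuronal markers summed to 93.8 to 118 CPM in control and 97.9 to 122 CPM in APP/PS1 libraries, with 3 of 4 below 0 (median −0.61), from Stmn2 at 6.66 to Slc17a7 at −0.85 log2 CPM. Here the sum rested mostly on Stmn2, with a log2 fold change of 0.02, while that of Slc17a7 was −1.05. Microglial markers summed to 56.2 to 66.3 and 52.3 to 61.7 CPM, with 5 of 7 below 0 (median −0.16), and the lowest of them was Tmem119 at −0.57 log2 CPM.
Choroid plexus epithelium has tight junctions of its own. Its 6 measured markers summed to 109 to 145 CPM in control and 71.8 to 96.8 CPM in APP/PS1 libraries, with 5 below 0 (median −0.83), from F5 at 5.43 to Tmem72 at −0.75 log2 CPM. Fibroblast markers summed to 11.8 to 18.3 and 7.10 to 12.3 CPM, with 3 of 3 below 0 (median −0.66), from Pdgfra at 3.10 to Dcn at 0.05 log2 CPM. This sum rested mostly on Pdgfra, with a log2 fold change of −0.50. Erythroid markers summed to 29.4 to 241 and 14.3 to 153 CPM, with 4 of 4 below 0 (median −1.16), from Hbb-bs at 5.52 to Alas2 at 2.05 log2 CPM. No marker gene of these lists passed an adjusted p under 0.05 by limma with the pairs in the model. The part of these cells in the levels of the 9 tight junction genes was not tested.

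**Figure D5:**
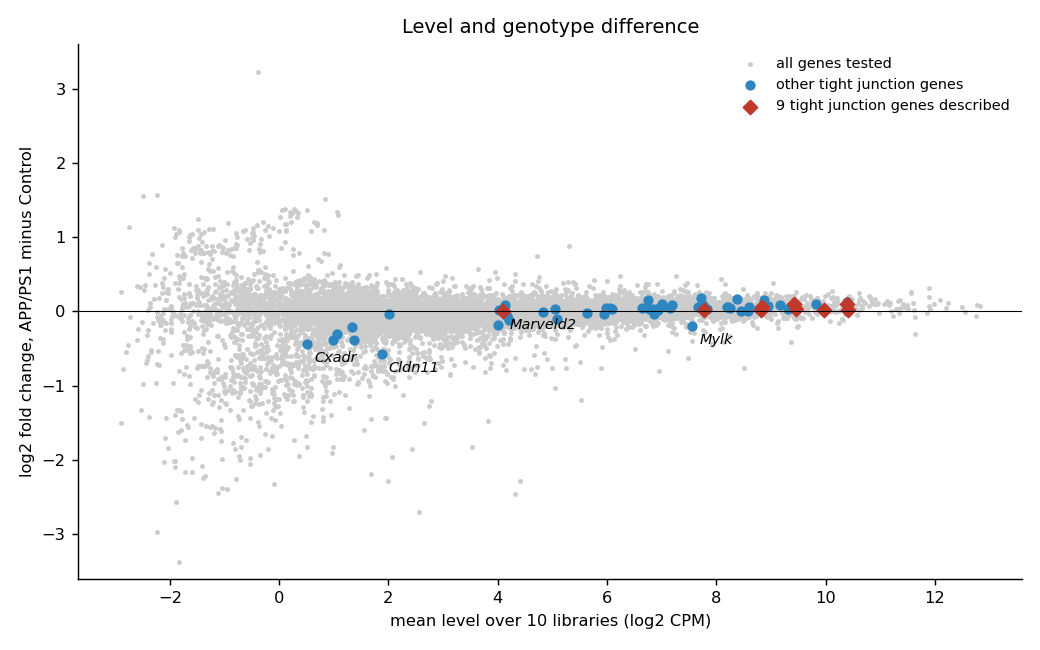
Mean log2 CPM over 10 libraries (x axis) against log2 fold change (y axis, APP/PS1 minus control) for all 14106 genes (grey), the 50 other tight junction genes (blue) and the 9 genes described (red). The 9 genes lie close to 0 at levels from 4.09 to 10.41 log2 CPM, while the tight junction genes farthest from 0, Cldn11 and Cxadr, lie at low levels.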

How the data were processed

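BECs of control and APP/PS1 mice were sequenced in 10 libraries, 5 for each genotype. Methods of the study state that the authors used STAR for alignment to mm10 and HTSeq-count for gene counts, filtered low counts and took log CPM with edgeR, and corrected for batch with ComBat. The deposited log2 CPM values of 14106 genes were used as they are, and the 10 files of single libraries equalled their columns of the table. Undoing the log2 gave multiples of a single step in every library (whole within 0.01, 100% of values under 10000 counts), called adjusted counts. ComBat on log CPM would not be expected to leave whole numbers, so which correction made them is unclear, and they are not taken for reads. Linear models (lmFit and eBayes of limma 3.58.1 in R 4.3.3) with genotype and 5 pairs were fitted to all genes, with Benjamini-Hochberg adjustment and a threshold of 0.05, and tested on simulated data. This left 4 residual degrees of freedom, compared with 8 without the pairs. Pairs were formed by the replicate number in the sample titles. The labels give both libraries of a number the same batch, but put replicates 4 and 5 into 1 batch, so that the split of that batch into 2 pairs rests on the numbers and on the values. Deviations of the 2 libraries of a pair had rank correlations from −0.999 to −0.989 over 10873 genes in all 5 pairs, as centring by pair produces.

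Symbols, positions and exon lengths came from GENCODE M21 (GRCm38, the assembly of mm10), where all 14106 genes were found. The members and all gene lists were chosen with earlier results of these data known. Named genes were the 9 members, the 2 most highly expressed and the 2 with the smallest p of each list of other tight junction genes, the 3 genes nearest to Cldn5 and to Ocln, and the highest and lowest marker of each cell type. Alternatives were a model without the pairs, 4 batches, eBayes with a trend or robust, 3 other scalings, log2(CPM + 1), a minimum of 1 log2 CPM, another gene length, and each replicate left out. Some genes that this rule or the tests pick are not reported here.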

Additional observations from a re-analysis of the deposited data

Results flagged for a closer look

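In 48 groups of 5 libraries, formed by the 9 tight junction genes and 15 named others in each genotype, a search for single libraries far from the rest found 1, and none in the 9 genes. Marveld1 was at 6.81 log2 CPM in APP/PS1 library 2, below the next library of its group at 7.07, a gap of 0.751 of the group's range where 0.71 is the critical value. Control library 2, the other of that pair, was the highest of its group at 7.21 log2 CPM. As the libraries of a pair deviate as mirror images here, the values cannot tell which of them is the unusual one. Chance alone marks about 1 in 20 groups, and the 2 groups of a gene are not independent.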

How the results depend on the processing

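With the replicate block (the 5 pairs) left out, limma called 648 genes and 5 of the other tight junction genes, in place of 0 and 0, and with a replicate block of the 4 labelled batches it called 1 gene. The p values without the block are too small, because pair means were already nearly equal in the deposited values. None of the 9 genes was called under any alternative listed. Leaving out single replicates gave counts over all genes from 0 to 5, with 5 reached without replicate 2. When CPM were rescaled to the same sum in every library, the median of the other tight junction genes was −0.00198, and the log2 fold changes turned to −0.0251 for Cldn5, −0.0176 for Ocln, −0.00387 for Jam2, −0.0210 for F11r and −0.0123 for Esam. With the shift by endothelial markers these were −0.00201, −0.0252, −0.0177, −0.0039, −0.0211 and −0.0124 in the same order. The median of ratios gave 0.00431 for Marveld2. The first 2 of these scalings moved every gene by nearly the same amount and the median of all genes from −0.0038 to −0.0411, so these sign changes follow from the scaling. Over the same omissions of 1 replicate, the log2 fold change ran from −0.0213 to 0.0700 for Cldn5, from −0.00881 to 0.0438 for Ocln, from −0.0794 to 0.0359 for Marveld2, from −0.0207 to 0.0418 for F11r and from −0.0101 to 0.0465 for Esam, and from 0.0072 to 0.12 for Lsr, 0.01 to 0.08 for Jam2, 0.07 to 0.13 for Tjp1 and 0.05 to 0.16 for Cgnl1. The median of the 9 genes ran from 0.02 without replicate 3 to 0.05 without replicate 5, and that of the other tight junction genes from 0.02 to 0.05. Reading the length from the longest transcript left the order of the 9 levels as it was. The cause of the other moves was not tested. Weakly expressed genes have the widest intervals.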
